A study of Mus musculus with 3 samples.

Results

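The 33 genes described here are mouse imprinted genes, taken from a list of names and not from their measured values. They were grouped by imprinted cluster and by the parental allele known to be expressed. Of the 33 listed genes, 31 had at least 1 probe set annotated to that gene alone, out of 18194 genes with such a probe set. H19 was represented by 1 probe set shared with Mir675, and Rtl1 by none, so neither received a gene value.

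The series consists of 3 Affymetrix Mouse Genome 430 2.0 arrays of wild-type astrocytes made in culture from embryonic stem cells, with no other group. The stem cells formed embryoid bodies for 4 days, were selected in ITSFn medium for 5 to 7 days, and were then kept as neural precursors in FGF2 and EGF2. At 18 passages after embryoid body formation, the growth factors were removed and 5% foetal bovine serum was given for 5 days to obtain astrocytes. The labels do not name the stem cell line or strain. They do not say whether the 3 replicates came from separate cultures either, so the p-values reflect sample-to-sample spread that may be technical.

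Imprinted genes are transcribed from only 1 of the parental copies, because the egg or the sperm leaves a DNA methylation mark at an imprinting control region that survives the reprogramming of the early embryo. Many lie in clusters in which a long noncoding RNA from 1 parental copy silences its protein-coding neighbours in cis. Their products act in fetal growth, placental function and the brain, and several are imprinted in only some neural cell types. The arrays measured total RNA of both copies, so the parental allele is given throughout as background and was not measured.

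The question a single group allows is which imprinted genes gave a signal above background and how alike the 3 arrays were. The background limit of an array was the 95th percentile of 77 olfactory, vomeronasal, trace-amine and taste receptor genes, whose transcripts belong to sensory cells. On the log2 intensity scale it was 3.99, 4.10 and 4.07 on replicates 1, 2 and 3. Levels are given as log2 intensity, and the distance from the limit is the mean over the arrays of that level minus the array's own limit, in log2 units. The level of a gene is that of its brightest single-gene probe set, and because probe sets bind with different strength each gene was set against the limit and not against another gene.

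All 8 astrocyte markers measured were above background, among them Gfap, Aqp4 and S100b. None of the 4 oligodendrocyte, 5 microglia, 4 endothelial, 5 fibroblast or 5 trophoblast and yolk sac markers was above it. Among 8 neuronal markers 5 were above background (Rbfox3, Tubb3, Map2, Syt1 and Dcx), while Snap25, Stmn2 and Nefl were not. Of 5 pluripotency markers only Esrrb was above it, at a distance of 0.87 log2 units. In bulk RNA, fewer cells of a type and less RNA per cell cannot be told apart.

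Of the 31 measured imprinted genes, 17 were above background (limma one-sample test, one-sided, adjusted p below 0.05), which is 54.8%, against 58.3% of the 18117 genes tested. The share lay near that of all genes and is therefore no result about imprinted genes as a class. Their median distance from the limit was 1.04 log2 units, against 1.76 over all genes tested. Signals were found for 11 of 17 genes labelled as expressed from the paternal copy (64.7%) and for 5 of 12 labelled as maternal (41.7%), a difference that was not tested. When a gene was instead given the median of its probe sets, 5 of the 17 paternal and 3 of the 12 maternal genes were above background, against 50.5% of all genes. The labels need not hold in astrocytes. The 5 maternal genes above background by their brightest probe set include Ube3a, which cells other than neurons express from both copies, and Cd81, which is imprinted in the placenta. Gnas, whose expressed allele depends on the transcript, was above background, and Grb10, whose expressed allele depends on the tissue, was not.

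**Figure D1:**
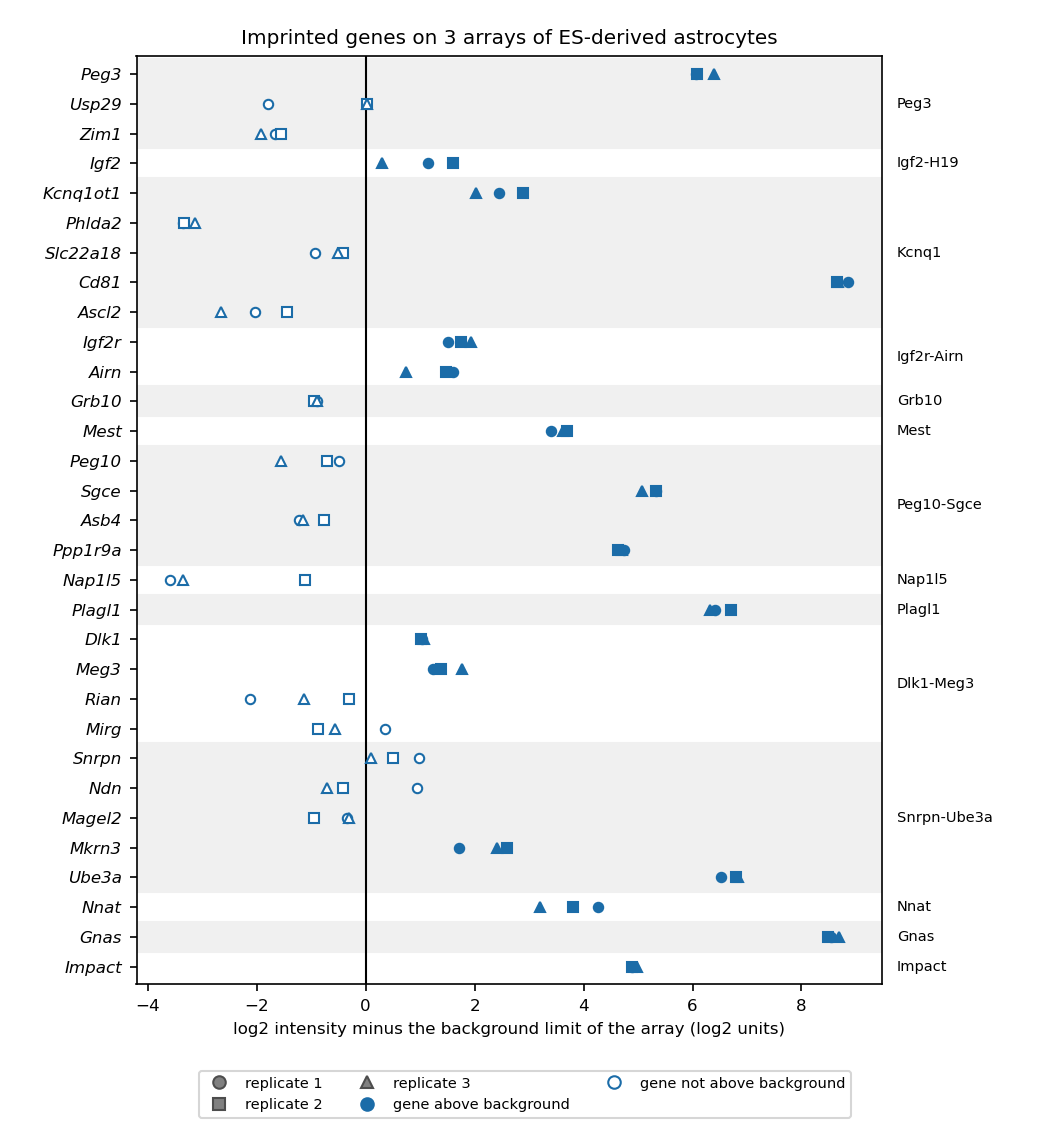
Log2 intensity minus the background limit of the array (x axis, log2 units) for the 31 measured imprinted genes on each of the 3 arrays. Genes run down the page by cluster, and the line at 0 marks the limit. Cd81 and Gnas lay farthest above the line, at mean distances of 8.73 and 8.57, and Phlda2 farthest below it, at -3.28.

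The Peg3 cluster held 1 clear signal. Peg3 encodes a zinc finger transcription factor linked in mice to growth and maternal care, and gave 10.05, 10.18 and 10.47 on the 3 arrays (10.23 ± 0.22, SD, n = 3). It exceeded the limit by 6.18 log2 units (limma adjusted p = 3.87e-05), with 3 of 5 probe sets above background. Usp29, a deubiquitinating enzyme transcribed divergently from the same control region and also from the paternal copy, gave 2.20, 4.12 and 4.09. Replicates 2 and 3 were marginally above their limits of 4.10 and 4.07 and replicate 1 far below, and the mean lay at -0.58 log2 units from the limit. Zim1, a zinc finger gene expressed from the maternal copy, stayed between 2.15 and 2.54 on all arrays.

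The windows around the annotated starts of Peg3 and Usp29 are shown because Peg3 passed the test and Usp29 did not, although they begin beside each other. Each window runs from 250 bases before the start to 50 bases after it, 5′ to 3′ on the strand of its gene, with CpG dinucleotides in capitals. Sequences are RefSeq's, on build GRCm38.p6. Peg3 is on the minus strand (chr7:6730370-6730669) and Usp29 on the plus strand (chr7:6730333-6730632).
Peg3: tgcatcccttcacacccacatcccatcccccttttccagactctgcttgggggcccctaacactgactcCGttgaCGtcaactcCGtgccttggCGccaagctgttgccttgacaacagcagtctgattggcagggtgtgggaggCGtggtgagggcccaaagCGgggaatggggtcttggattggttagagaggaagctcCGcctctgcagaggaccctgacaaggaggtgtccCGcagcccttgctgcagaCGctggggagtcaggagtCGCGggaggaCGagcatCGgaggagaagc
Usp29: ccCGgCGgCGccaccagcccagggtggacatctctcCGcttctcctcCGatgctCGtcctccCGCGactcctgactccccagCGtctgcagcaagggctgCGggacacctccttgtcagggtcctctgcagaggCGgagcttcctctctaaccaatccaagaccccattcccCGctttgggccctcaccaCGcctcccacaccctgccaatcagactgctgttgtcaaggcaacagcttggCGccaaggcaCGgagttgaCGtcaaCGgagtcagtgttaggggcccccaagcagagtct
The starts lie 164 bases apart and the windows have 263 bases in common, read from opposite strands. The Peg3 window holds 13 CpG dinucleotides and the Usp29 window 17, against a median of 7 over all windows in the table.

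In the Snrpn-Ube3a cluster, the mouse counterpart of the Prader-Willi and Angelman syndrome region, Ube3a and Mkrn3 were above background. Ube3a encodes a ubiquitin ligase that neurons express from the maternal copy and other cells from both. It gave 10.52, 10.90 and 10.91 (10.78 ± 0.22, SD, n = 3), 6.72 log2 units over the limit, with 4 of 6 probe sets above background. Mkrn3, a makorin RING finger gene of the paternal copy whose loss in people leads to early puberty, gave 5.70, 6.70 and 6.49 (6.30 ± 0.53), 2.24 log2 units over the limit.

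The other paternal genes of that cluster did not pass the test. Snrpn, which encodes the SmN splicing protein, gave 4.97, 4.60 and 4.17 with its 1 single-gene probe set, above the limit on every array, by 0.52 log2 units on average (limma adjusted p = 0.0740). Without replicate 3 the distance was 0.74 log2 units, and Snrpn passed (limma adjusted p = 0.0472). Probe sets annotated to Snurf and Snrpn together, which share a transcript in mice, were not counted for a gene, and 1 of them gave 10.19, 10.16 and 10.25. Counting that probe set put Snrpn 6.15 log2 units over the limit (limma adjusted p = 3.84e-05), and Snrpn also passed with the limit at the 90th percentile of the receptor genes (0.78 log2 units, limma adjusted p = 0.0253). Its call thus rested on the limit, on replicate 3 and on how shared probe sets are treated.

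Ndn, which encodes the MAGE-family protein necdin, gave 4.93, 3.68 and 3.37. Replicate 1 was above its limit and the others below, and none of its 8 probe sets was above background. Magel2, another MAGE-family gene, which acts with the retromer in recycling proteins from endosomes, gave 3.64, 3.16 and 3.77, below the limit on all arrays.

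Igf2 and Igf2r encode a growth factor and the receptor that removes it, and both were above background at low distances. Igf2 gave 5.13, 5.69 and 4.37 (5.06 ± 0.67, SD, n = 3), 1.01 log2 units over the limit (limma adjusted p = 0.0316), and had the widest spread of the 17 genes above background. Replicate 3 was lowest and replicate 2 highest, with every array above its limit. The call was lost without replicate 1, at 0.95 log2 units (limma adjusted p = 0.104), and without replicate 2, at 0.72 (limma adjusted p = 0.101). Of the 2 probe sets of Igf2, 1 was above background, and the other lay at -2.35 log2 units from the limit. The probe set of H19, the maternal noncoding RNA beside Igf2, is shared with Mir675, which is processed from H19. It gave -1.03, 3.01 and 0.28, below the limit on all arrays.

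Igf2r gave 5.50, 5.85 and 6.01 (5.79 ± 0.26, SD, n = 3), 1.73 log2 units over the limit, and both of its probe sets were above background. Airn, the paternal noncoding RNA antisense to Igf2r that silences it in cis in mice, gave 5.60, 5.57 and 4.81 (5.33 ± 0.45), 1.27 log2 units over the limit (limma adjusted p = 0.00709). Replicate 3 was lowest for Airn and highest for Igf2r. Airn overlaps the start of Igf2r on the opposite strand, and whether its probe sets read that strand alone was not tested. In Airn 2 of 5 probe sets were above background.

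The windows around both starts are shown, in the same form, because sense and antisense transcript were above background together and their starts differ in CpG content. Igf2r is on the minus strand (chr17:12769657-12769956) and Airn on the plus strand (chr17:12741061-12741360).
Igf2r: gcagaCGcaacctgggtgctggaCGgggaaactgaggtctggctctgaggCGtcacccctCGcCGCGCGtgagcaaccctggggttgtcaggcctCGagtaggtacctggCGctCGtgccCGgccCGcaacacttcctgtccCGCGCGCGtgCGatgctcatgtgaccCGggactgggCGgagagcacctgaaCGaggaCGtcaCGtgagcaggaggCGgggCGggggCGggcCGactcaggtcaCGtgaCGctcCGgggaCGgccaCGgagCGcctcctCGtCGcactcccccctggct
Airn: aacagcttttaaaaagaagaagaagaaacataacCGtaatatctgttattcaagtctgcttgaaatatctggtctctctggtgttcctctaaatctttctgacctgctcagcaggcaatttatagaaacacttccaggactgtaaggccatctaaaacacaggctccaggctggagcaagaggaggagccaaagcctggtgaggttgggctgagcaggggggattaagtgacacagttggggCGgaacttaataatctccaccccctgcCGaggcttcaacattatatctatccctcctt
The Igf2r window holds 34 CpG dinucleotides and the Airn window 3.

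In the Kcnq1 cluster, Cd81 and Kcnq1ot1 were above background and the maternal genes Phlda2, Ascl2 and Slc22a18 were not. Cd81 encodes a tetraspanin of the cell surface that is imprinted in the mouse placenta, and gave 12.84, 12.75 and 12.74 (12.78 ± 0.06, SD, n = 3), 8.73 log2 units over the limit. Kcnq1ot1, the paternal noncoding RNA that silences the cluster in cis, gave 6.43, 7.00 and 6.11 (6.51 ± 0.45), 2.46 log2 units over the limit. In Kcnq1ot1 2 of 6 probe sets were above background.

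Phlda2, a pleckstrin-homology gene that restrains placental growth, lay between 0.64 and 0.94 on the 3 arrays, the farthest below the limit of the 31 genes with a value, at -3.28 log2 units. Ascl2, a helix-loop-helix factor needed for the mouse trophoblast, lay between 1.42 and 2.65. Slc22a18, which encodes a transporter-like membrane protein, lay between 3.05 and 3.68. All 3 were thus below the limit on every array. Cdkn1c, a cyclin-dependent kinase inhibitor of the same cluster that is not among the 33 genes, gave 5.72, 6.09 and 5.68, 1.77 log2 units over the limit, and Kcnq1, the host of the noncoding RNA, was not above background at -0.41 log2 units.

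In the Dlk1-Meg3 cluster, Dlk1 and Meg3 were above background by small distances and Rian and Mirg were not. Dlk1, a transmembrane protein related to Notch ligands, gave 5.02, 5.12 and 5.14 (5.09 ± 0.06, SD, n = 3), 1.04 log2 units over the limit (limma adjusted p = 0.00155). Meg3, a maternal long noncoding RNA, gave 5.22, 5.48 and 5.85 (5.52 ± 0.31), 1.46 log2 units over the limit (limma adjusted p = 0.00158). Each was above the limit on all arrays, but the call rested on 1 of 2 probe sets for Dlk1 and 1 of 11 for Meg3. Probe sets with names ending in _s_at or _x_at can bind more than 1 transcript. When they were left out, the distances were -2.15 log2 units for Dlk1 and -0.07 for Meg3.

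Rian, the host of small nucleolar RNAs, gave 1.87, 3.80 and 2.94, and Mirg, a host of microRNAs, gave 4.35, 3.23 and 3.51. Both are transcribed from the maternal copy downstream of Meg3. Only replicate 1 of Mirg exceeded its limit, and none of the 4 probe sets of Rian or the 2 of Mirg was above background. The 4 measured genes flanking the cluster, Wars, Wdr25, Ppp2r5c and Dync1h1, were all above background.

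In the Peg10-Sgce cluster, Sgce and Ppp1r9a were above background. Sgce encodes epsilon-sarcoglycan, whose loss causes myoclonus-dystonia in people, and gave 9.32, 9.43 and 9.14 (9.30 ± 0.15, SD, n = 3), 5.24 log2 units over the limit. Ppp1r9a encodes neurabin, an actin-binding scaffold of protein phosphatase 1, and gave 8.73, 8.73 and 8.79 (8.75 ± 0.03), 4.70 log2 units over the limit. Its values were the closest together among the 17 genes. Of its 5 probe sets, 2 were above background, and its call was lost with their median (0.33 log2 units, limma adjusted p = 0.328). In Sgce 1 of 2 probe sets was above background.

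Peg10, a retrotransposon-derived gene that starts beside Sgce and is expressed from the same paternal copy, gave 3.50, 3.38 and 2.52, below the limit on every array at -0.92 log2 units. Sgce and Peg10 thus stood on either side of the limit, as Peg3 and Usp29 did. Asb4, a maternal gene with ankyrin repeats and a SOCS box, lay between 2.77 and 3.34, also below the limit throughout.

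Of the genes that stand alone or in small domains, Plagl1, Gnas, Impact, Nnat and Mest were above background. Plagl1, a zinc finger factor also called Zac1 that arrests the cell cycle, gave 10.41, 10.81 and 10.40 (10.54 ± 0.23, SD, n = 3), 6.49 log2 units over the limit. Gnas, which encodes the stimulatory G protein alpha subunit and several alternative products, gave 12.53, 12.59 and 12.76 (12.62 ± 0.12), 8.57 log2 units over the limit. Both rested on 1 probe set able to bind more than 1 transcript, 1 of 3 for Plagl1 and 1 of 5 for Gnas. Without _s_at and _x_at probe sets the distances were -0.14 log2 units for Plagl1 and -0.16 for Gnas, so which Gnas transcripts gave the signal was not resolved.

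Impact, a translational regulator that keeps GCN1 from activating the kinase GCN2, gave 8.88, 8.99 and 9.05 (8.97 ± 0.09, SD, n = 3), 4.92 log2 units over the limit, with 1 of 3 probe sets above background, and its call was lost with the median of the 3 (0.38 log2 units, limma adjusted p = 0.435). Nnat, a small membrane protein of the endoplasmic reticulum encoded within an intron of Blcap, gave 8.25, 7.91 and 7.27 (7.81 ± 0.50), 3.76 log2 units over the limit, with replicate 3 lowest. Mest, which encodes a hydrolase-like protein first described in mesoderm, gave 7.39, 7.79 and 7.71 (7.63 ± 0.21), 3.57 log2 units over the limit. Nnat and Mest have 1 single-gene probe set each, so no other probe set bears on them.

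Grb10, an adaptor that dampens insulin and IGF receptor signalling, gave 3.09, 3.15 and 3.19, tightly grouped 0.91 log2 units under the limit, with 0 of 3 probe sets above background. Nap1l5, a nucleosome assembly protein-like gene that lies within an intron of Herc3, gave 0.41, 2.99 and 0.72, below the limit on every array. Among the 14 imprinted genes not above background, 4 exceeded the limit on at least 1 array (Usp29, Mirg, Snrpn and Ndn).

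Probe sets of the same imprinted gene often disagreed. The 31 genes had 93 single-gene probe sets, of which 26 were above background (28.0%), against 44.3% of the 44084 probe sets tested. Unlike the 93, the 44084 include 9211 probe sets annotated to no gene. The imprinted genes also carried more single-gene probe sets, 3.00 per gene against 1.92 over all genes. Of the 93 probe sets, 58 (62.4%) had the call of their gene, but 31 of these are the probe sets that set that call. Of the other 62, 27 had it (43.5%). In a gene that did not pass, such agreement was nearly fixed in advance, because the other probe sets are dimmer than the one that failed. The share therefore overstates how well probe sets agreed. Among the 13 genes that passed and had 2 or more probe sets, Igf2r alone had all of them above background. The 8 that did not pass and had 2 or more had none, which follows almost entirely from judging a gene by its brightest probe set.

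**Figure D2:**
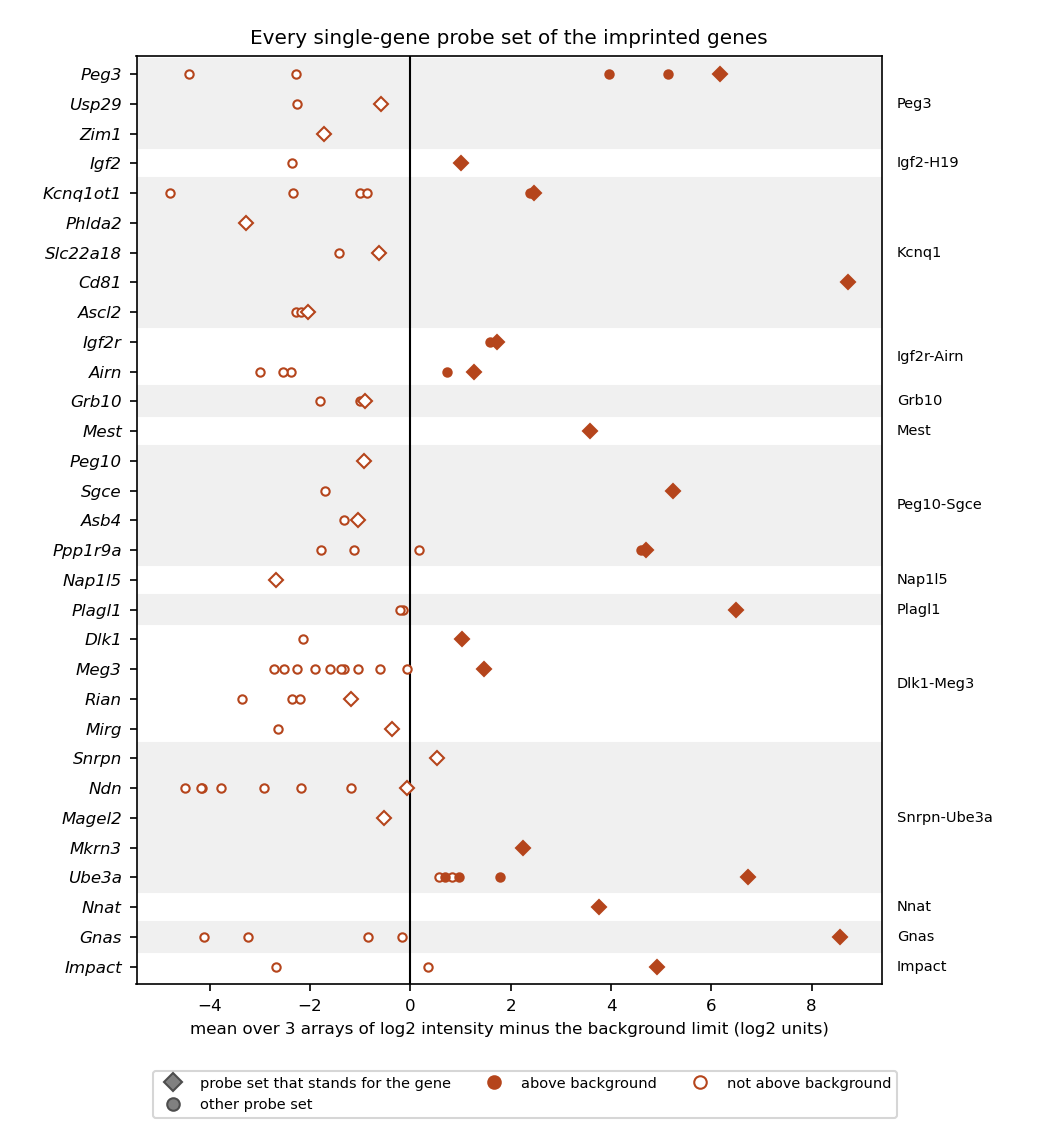
Mean distance from the background limit over the 3 arrays (x axis, log2 units) of each of the 93 single-gene probe sets of the imprinted genes, with filled symbols for those above background and diamonds for the probe set that stands for the gene. Meg3 has 1 filled symbol among 11, and both symbols of Igf2r are filled.

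Under 12 processing alternatives and 1 more chosen after seeing the data, Peg3, Cd81, Igf2r, Mest, Sgce, Mkrn3, Ube3a and Nnat stayed above background, at no less than 1.13 log2 units. Cd81, Mest, Mkrn3 and Nnat have 1 single-gene probe set each, so no alternative that changes the choice among a gene's probe sets could move them. Peg3, Igf2r, Sgce and Ube3a have at least 2 and were also above background when a gene was given the median of its probe sets. The other 9 (Igf2, Kcnq1ot1, Airn, Ppp1r9a, Plagl1, Dlk1, Meg3, Gnas and Impact) were no longer above background with that median. Of the 14 not above background, 13 were so under every alternative that tested them, the exception being Snrpn.

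**Figure D3:**
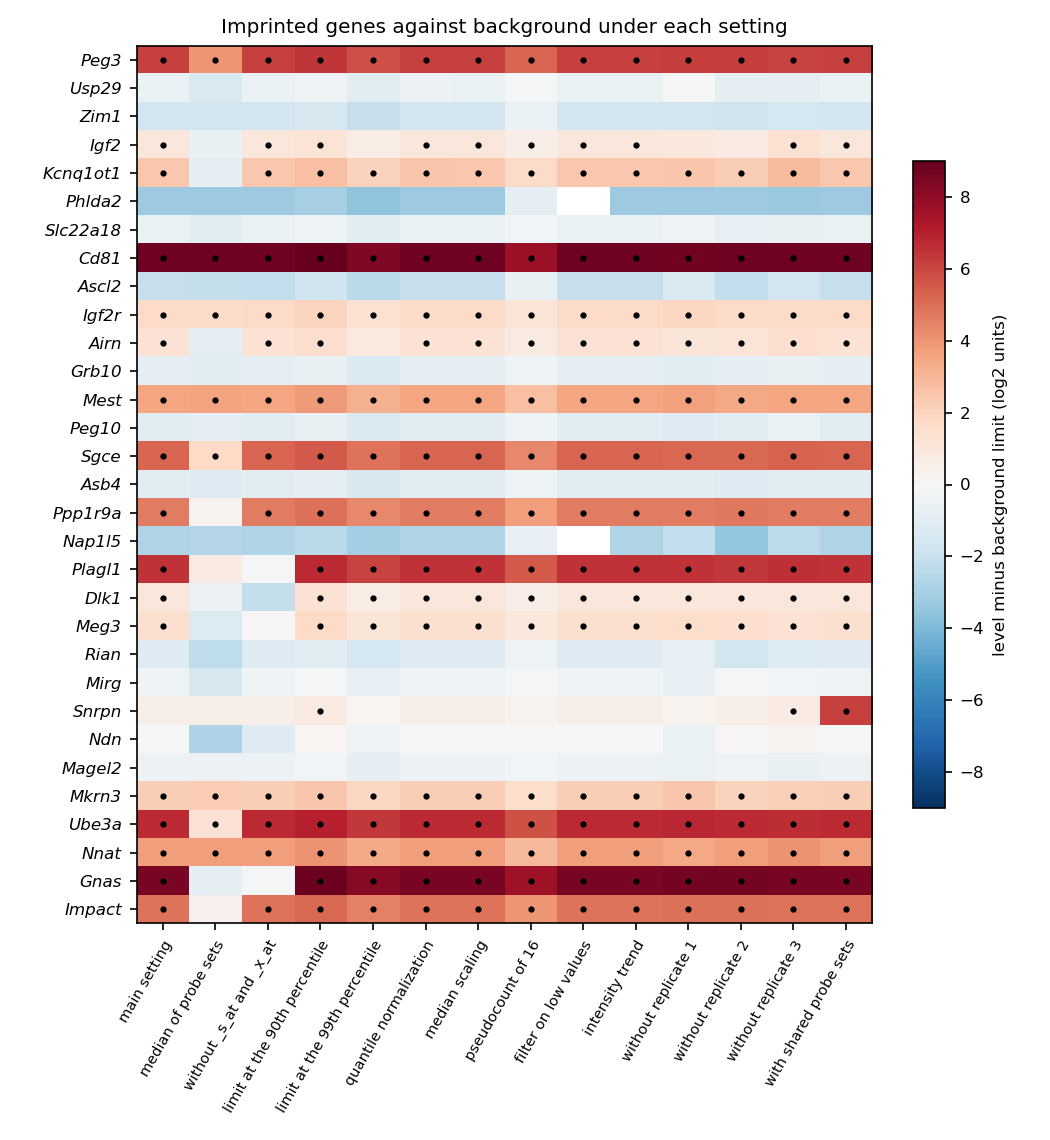
Distance from the background limit (colour, log2 units, red above and blue below) of the 31 imprinted genes under each processing alternative (columns), with a dot where the gene was above background and white where it was not tested. Peg3, Cd81, Igf2r, Mest, Sgce, Mkrn3, Ube3a and Nnat carry a dot in every column.

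The SD over the 3 arrays of the 17 genes above background had a median of 0.22 log2 units and ran between 0.03 (Ppp1r9a) and 0.67 (Igf2), against a median of 0.24 over all genes above background. After each array's median deviation was removed, replicate 3 was lowest for 11 of the 17 genes, against 40.1% of all genes above background, and highest for 3, against 39.9%. The difference between these shares was not tested.

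The machinery that keeps imprints was measured for 19 of 21 listed factors, and 14 were above background (73.7%), against 58.3% of all genes tested. The difference was not tested. The 14 included Trim28, the corepressor that binds methylated control regions through zinc finger proteins (9.78, 9.92 and 10.30), Zfp445, such a zinc finger protein (9.83, 10.09 and 10.28), and Ctcf, the insulator protein of the Igf2-H19 region (8.43, 8.88 and 9.10). Dnmt1, the maintenance DNA methyltransferase, gave 7.07, 7.21 and 7.68, 3.27 log2 units over the limit. Zfp57, the other zinc finger protein with that role, was not above background (1.36, 2.11 and 0.63).

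The remaining factors not above background were Dnmt3b, Dnmt3l, Uhrf1 and Dppa3. Dnmt3b and Dnmt3l act in setting new methylation, and Uhrf1 brings Dnmt1 to replicating DNA. Uhrf1 was the most uneven of them, at 1.15, 3.51 and 4.73, and replicate 3 alone exceeded its limit. In contrast, Dnmt3a, from the same family as Dnmt3b, was above background at 8.61, 8.98 and 8.87. It lay 4.77 log2 units over the limit, with 2 of 5 probe sets above background.

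Partners of the imprinted gene products were above background in 18 of 21 cases (85.7%), against 58.3% of all genes tested, a difference that was not tested. Igf1r and Insr, the receptors through which Igf2 signals, lay 4.11 and 2.82 log2 units over the limit. Gcn1 and Eif2ak4, which encodes GCN2, lay 3.49 and 2.23 log2 units over it, beside Impact. The exceptions were Igf2bp1, which binds Igf2 messenger RNA, E2f1 and Sgcd.

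Among 34 further imprinted genes with a value, 17 were above background (50%), and among 77 measured genes lying within or next to the clusters, 40 were (51.9%), both near the 58.3% of all genes. By cluster, 4 of 4 flanking genes of Dlk1-Meg3 and 5 of 6 around each of Plagl1, Nnat and Gnas were above background. Intermediate clusters included Kcnq1 (6 of 10) and Impact (4 of 6), and the lowest were Grb10 (1 of 6) and Igf2r-Airn (0 of 4). Each cluster has few such genes, and differences between clusters were not tested. Counting names with and without a value, 20 of the 43 further imprinted genes listed are also among the 90 flanking genes listed. Dio3, Begain, Slc22a3 and Snurf are among these 20 and had no value.

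**Figure D4:**
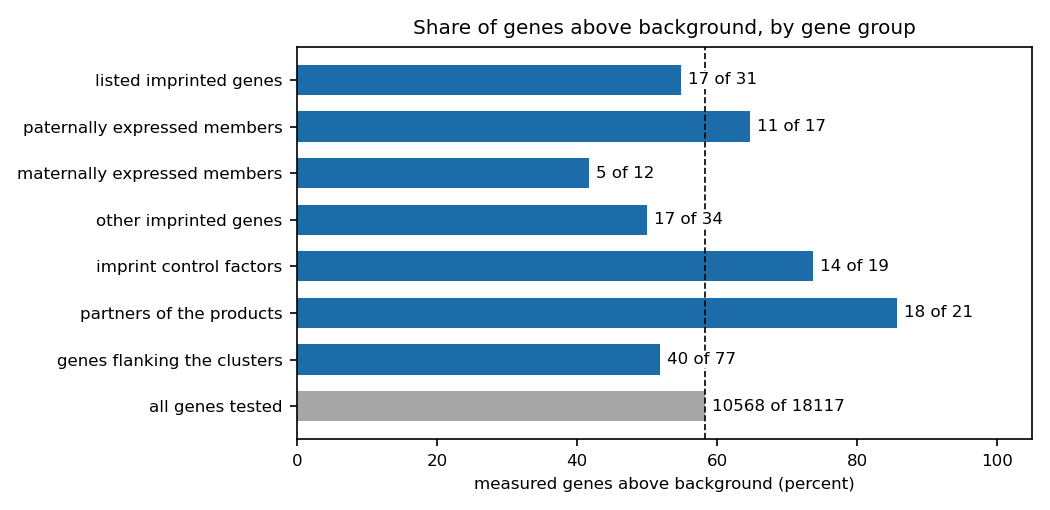
Share of measured genes above background (x axis, percent) for the imprinted genes, their subsets by expressed allele, the related lists and, in grey, all genes tested, with counts beside the bars. The dashed line marks the 58.3% of all genes, near which the imprinted genes lie at 54.8%.

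A RefSeq promoter window was held for 28 of the 31 genes. Where a gene had several windows, the one with the highest CpG ratio was taken, here and over all genes. The ratio of observed to expected CpG dinucleotides exceeded 0.6 in 11 of 15 imprinted genes above background and in 7 of 13 not above it, against 38.3% of 27025 genes. The median ratio was 0.70 in the imprinted genes above background and 0.60 in those not above it, against 0.41 over all genes. These differences were not tested. The letters TGCCGC, which ZFP57 recognises when methylated, were found on either strand in 4 of the 15 and 4 of the 13 windows, against 12.1% of all genes. The letters GCCATNTT, a YY1 motif, were found in 2 of the 15 and 0 of the 13, against 6.25%. A match of letters is a description and not a bound site.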

How the data were processed

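RNA of 3 samples of 1 group was measured on 1-colour Affymetrix arrays. The deposited values are intensities on a linear scale, 1 per probe set, made with GCOS 1.4 per the submitters' processing notes. The algorithm settings and scaling were not given in the sources used here. Trimmed means differed between arrays, so no common scaling mean was apparent.

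Intensities were used as log2 values with no further normalization. Of 45101 probe sets, 34958 had 1 gene in the platform annotation, 932 had several and were not used for gene values, and 9211 were unnamed here. A gene took its single-gene probe set with the highest mean. The background limit was the 95th percentile of 77 chemosensory receptor genes, which were left out of the 18117 genes tested. Log2 intensity minus the limit was tested against 0 with limma 3.58.1 in R 4.3.3 (lmFit and eBayes, one-sided, Benjamini-Hochberg over all genes, threshold 0.05). The procedure was tested on simulated data. A call says that a probe set outshone most receptor probe sets, and taking the brightest probe set favours genes with many. The number of arrays limits the precision.

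All 33 members were named. Of related lists, the first 5 measured genes and every gene of a count of 5 or fewer could be named, and others were chosen after their values were seen. Members and lists were chosen with earlier results of these data known. Flanking genes were those between the listed members of a cluster and 3 on each side, by order in the RefSeq table. Alternatives were the median of probe sets, leaving out _s_at and _x_at probe sets, and limits at the 90th and 99th percentile. Others were quantile and median scaling, a pseudocount of 16, a filter on low values, an intensity trend, and leaving out each array. Probe sets with names ending in _a_at, such as those that stand for Sgce and Nnat, were kept. Counting shared probe sets was added after seeing the data.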

Additional observations from a re-analysis of the deposited data

Results flagged for a closer look

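Probe sets annotated to Snurf and Snrpn together were left out of the gene values, and 5 of the 6 had a mean above the background limit. The distances of these 5 from the limit were 6.15, 5.96, 4.70, 5.51 and 0.81 log2 units, and the sixth lay at -2.43. On the array scale the first gave 10.19, 10.16 and 10.25 and the third 9.18, 9.11 and 7.97 on replicates 1, 2 and 3, with replicate 3 lowest for the third. The single-gene probe set of Snrpn lay 0.52 log2 units over the limit.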

How the results depend on the processing

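With a gene's level set to its median probe set, 8 imprinted genes in place of the 17 were above background (50.5% of all genes). The median SD, taken over the same 17 genes, became 0.53 log2 units in place of 0.22. In that setting Igf2 lay at -0.65, Kcnq1ot1 at -0.90, Airn at -0.82, Dlk1 at -0.53, Meg3 at -1.23 and Gnas at -0.82 log2 units from the limit. Without _s_at and _x_at probe sets, 13 were above background, and Plagl1 lay at -0.14, Dlk1 at -2.15, Meg3 at -0.069 and Gnas at -0.16. Both alternatives change which probe set stands for a gene. The count was 18 with the 90th and 15 with the 99th percentile of the receptor genes, 16 to 18 without each array in turn, and 18 with shared probe sets. With the 99th percentile, Igf2 (0.63) and Airn (0.90) no longer passed. The count of probe sets above background was 26, and of flanking genes 40, with 20 to 28 and 33 to 42 over their alternatives. No paired analysis was possible because the series has 1 group. Calls changed for genes near the limit (Igf2, Dlk1, Airn, Snrpn) and for genes far above it (Gnas, Plagl1). A gene below it may be transcribed at a level these probe sets do not show.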
